A study of Mus musculus with 7 samples.

Results

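The effect of training on microRNAs (miRNAs) of the control hippocampus was measured in 4 of the 7 small RNA libraries of the series, chosen by their labels. Library 1 is of untrained wildtype mice (non-trained control) and libraries 3, 4 and 5 are of trained wildtype mice (trained control). The other libraries are of mice with the NIPP1* transgene, library 2 of untrained and libraries 6 and 7 of trained animals. All were adult C57BL/6 mice of 3 to 5 months, and male per the methods.

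Training was an object recognition task, in which a mouse explores objects in an arena in 1 or more sessions and later meets an unfamiliar one among them, and the tissue was collected shortly after training ended. Per the study's methods, non-trained mice were put in the same arena without objects. NIPP1* is a fragment of a nuclear inhibitor of protein phosphatase 1 (PP1), fused to EGFP under a tetO promoter. It was switched on by doxycycline in the food through a transactivator under the CaMKIIalpha promoter, which is active in forebrain neurons. The controls were littermates of these mice, and the text of the methods does not say which of the transgenes they carried. Each library holds hippocampal tissue pooled from several mice, and how the mice were divided among the libraries is not given in the sources used here. p-values therefore measure the spread between libraries, which may be technical.

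The labels and the deposited comparison tables do not place the trained libraries alike. The authors' mean of the trained wildtype group was rebuilt from libraries 6 and 7 to within a relative error (root mean square) of 0.0185% over 328 miRNAs, and from libraries 3, 4 and 5 with an error of 16.6%. In the table of untrained against trained NIPP1, the authors' mean of the trained group was rebuilt from libraries 3, 4 and 5 with an error of 0.00632%, and from libraries 6 and 7 with an error of 16.7%. Groups below follow the labels. Values with libraries 6 and 7 as the trained control are given for the main results as the grouping of the tables, and both groupings share the 1 non-trained control library.

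A miRNA is cut as a hairpin from a primary transcript and then to a short duplex, of which usually a single strand is loaded into an Argonaute protein. In the files' names a * marks the other strand of a hairpin, which is not always the less abundant one. Bases 2 to 8 of the mature strand, the seed, pair with target mRNAs and lower their stability or translation. In neurons some miRNAs act in dendrites near synapses, and several are transcribed or degraded in response to activity, which is why their levels after learning are of interest.

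The miRNAs on which the comparison turned are shown here as RNA from RefSeq (build GRCm38.p6), with the seed in capitals, so that families with a common seed can be seen. The first set is the miR-183 cluster, whose estimated differences were among those with the widest spread.
miR-183: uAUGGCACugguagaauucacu
miR-96: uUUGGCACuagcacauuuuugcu
miR-182: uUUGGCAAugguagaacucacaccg
The second set was chosen from the miRNAs with the 12 lowest estimates among those averaging 100 reads or more, since library 1 lay above all 3 trained control libraries for each.
miR-135a: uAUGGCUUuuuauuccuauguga
miR-34a: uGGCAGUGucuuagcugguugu
miR-21: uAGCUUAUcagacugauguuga
miR-190: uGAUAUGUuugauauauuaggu
miR-338-3p: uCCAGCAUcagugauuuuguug
miR-219-5p: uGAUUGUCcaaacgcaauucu
The third set lay higher in all 3 trained control libraries.
miR-129-2-3p: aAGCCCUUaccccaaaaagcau
let-7b: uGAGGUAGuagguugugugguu
let-7c: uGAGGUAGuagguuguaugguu
In the files' build (mm9), the cluster lies on the minus strand of chromosome 6, with miR-183 at chr6:30119711-30119732, miR-96 at chr6:30119506-30119528 and miR-182 at chr6:30115962-30115986. miR-34a lies at chr4:149442582-149442603 on the plus strand, miR-21 at chr11:86397622-86397643 on the minus strand, miR-190 at chr9:67084507-67084528 on the minus strand and miR-338-3p at chr11:119876095-119876116 on the minus strand. miR-129-2-3p is cut from the hairpin Mir129-2 at chr2:94081533-94081554 on the minus strand. miR-135a, let-7c and miR-219-5p each have 2 loci with the same mature sequence, so their level is that of both hairpins together. let-7b lies at chr15:85537755-85537776 on the plus strand.

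Levels are reads per 1000000 miRNA reads (RPM), from the deposited percentages. Totals worked out from the smallest steps between values were 8890931 reads for library 1 and between 7817801 and 8352320 for libraries 3, 4 and 5. At least 1 read was found for 733 mature sequences in the 4 control libraries, of 756 in all 7. The 10 most abundant miRNAs took between 62.2% and 64.3% of the reads of a control library. Intervals on reads cover only the error of counting reads. PCR copies are not separate molecules, so these intervals can be narrower than the error of counting molecules.

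No miRNA passed the test between trained and non-trained controls. Among the 476 miRNAs whose mean over all libraries reached 10 reads, limma on log2(RPM + 0.5) called 0 (0% of those tested) at a Benjamini-Hochberg adjusted p under 0.05, and the lowest adjusted p was 0.583. At an unadjusted p under 0.05 it gave 28 miRNAs (5.88%). On recovered reads, the edgeR quasi-likelihood test called 0 and the DESeq2 Wald test called 1, miR-129-2-3p. With the trained group of the tables limma called 0 (0%). There the lowest adjusted p was 0.408, and 12 miRNAs (2.52%) had an unadjusted p under 0.05. edgeR called 0 and DESeq2 called 1 in that grouping, miR-135a. With 1 library against 3, an exact permutation test of a single miRNA cannot go below p = 0.25. The median 95% interval of a log2 fold change reached 0.61 to either side before any adjustment. At the adjusted threshold even the estimate of -1.24 for miR-344d-3* was not called.

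The estimated differences were small for most miRNAs. An estimate of at least 1 on the log2 scale in favour of the trained controls was found for 5 of 476 miRNAs (1.05%), miR-183, miR-96, miR-182, miR-200c and miR-3087*, and one of at most -1 for 2 (0.42%), miR-135a and miR-344d-3*. Under the grouping of the tables these numbers were 5 (1.05%) and 3 (0.63%). miR-3087* and miR-344d-3* were named after their values were seen. miR-344d-3* was at 10.2 RPM in library 1 and at 4.27, 4.67 and 3.33 RPM in libraries 3, 4 and 5, but at 12.2 and 15.8 RPM in libraries 6 and 7.

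**Figure D1:**
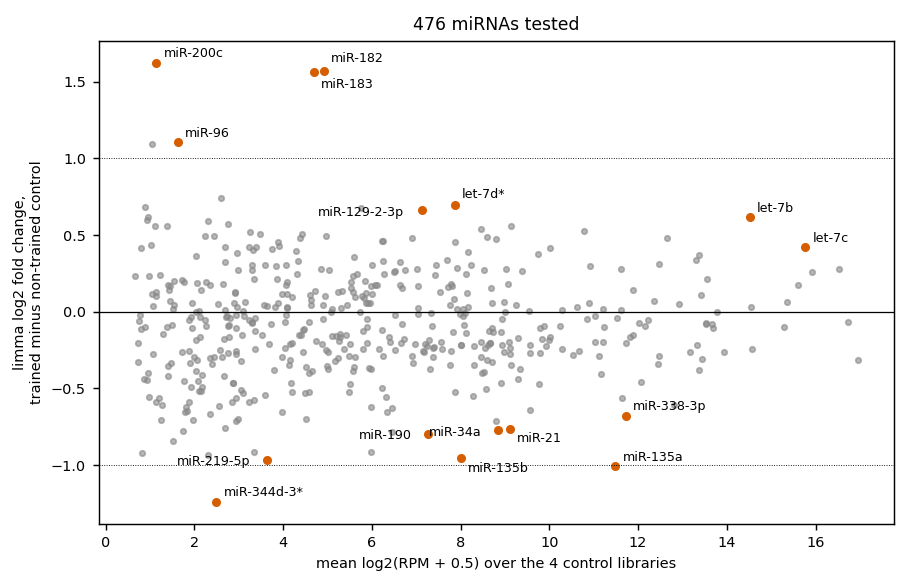
The limma log2 fold change of trained minus non-trained control on the vertical axis against the mean log2(RPM + 0.5) over the 4 control libraries on the horizontal axis, 1 point for each of the 476 miRNAs tested, with dotted lines at 1 and -1. The named points past 1 are miR-182, miR-183, miR-96 and miR-200c, and miR-135a is the most abundant of the points past -1.

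The value of library 1 lay above all 3 trained control libraries for 178 miRNAs (37.4%) and below all 3 for 87 (18.3%). This excess of the upper side depends on the scaling. With TMM factors library 1 lay above for 130 (27.3%) and below for 129 (27.1%), and with size factors of DESeq2 above for 28.4% and below for 27.1%. Against libraries 6 and 7, library 1 lay above both for 180 (37.8%) and below both for 137 (28.8%), shares that are not comparable with those against 3 libraries, since the range of fewer libraries is passed more often. The median log2 fold change over all miRNAs tested was -0.09, and it was -0.0024 with TMM factors.

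The 3 trained control libraries did not form a tight group. The median absolute log2 difference between libraries over the 476 miRNAs was 0.187 between library 1 and library 3, and 0.269 and 0.318 between library 3 and libraries 4 and 5. Libraries 4 and 5 differed from each other by 0.177, and from library 1 by 0.301 and 0.319. Library 3 thus lay nearer to the non-trained library than to the other libraries of its own group. Without library 3, 108 miRNAs had an unadjusted p under 0.05, and 20 had a log2 fold change of at least 1 in size, but limma still called 0.

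Libraries 4 and 5, and library 2 to a lesser degree, also differed from library 1 in step with base composition. Over the 476 miRNAs, the Spearman correlation between the GC content of the mature sequence and the log2 difference to library 1 was 0.45 for library 4 and 0.42 for library 5, against 0.33 for the non-trained NIPP1* library, 0.0035 for library 3, 0.011 for library 6 and 0.039 for library 7. These are correlations across miRNAs of the same pair of libraries, given as a description. Among the 81 miRNAs with a GC content under 40%, the median log2 difference to library 1 was -0.11 in library 3, -0.38 in library 4 and -0.43 in library 5. Among the 76 with a GC content of 60% or more it was -0.07, 0.29 and 0.18. With a straight line on GC content removed from each library, an alternative chosen after seeing the data, limma called 0 and 5 miRNAs had a log2 fold change of at least 1 in size. The part of base composition in the values of single miRNAs below was not tested beyond this fit.

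**Figure D2:**
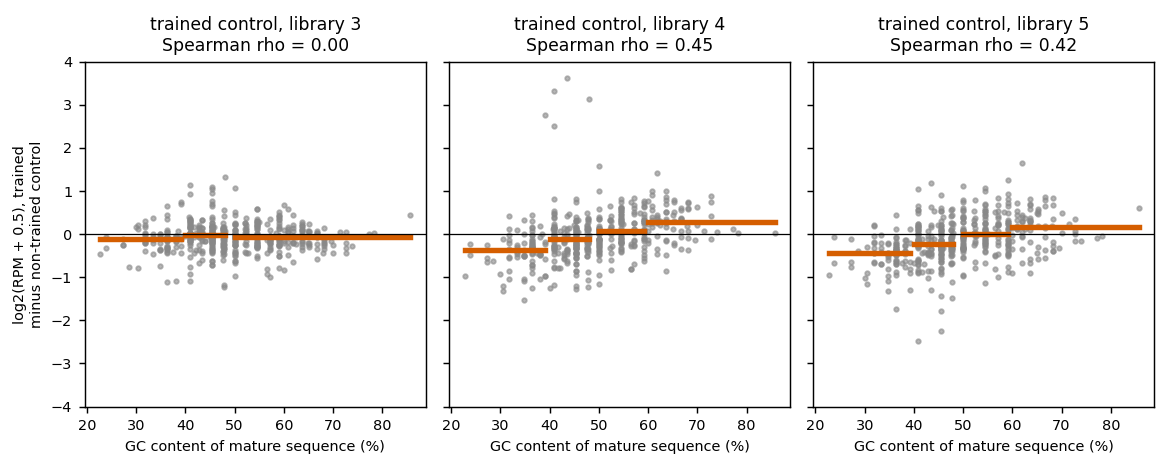
The log2 difference of each trained control library to the non-trained control library on the vertical axis against the GC content of the mature sequence (%) on the horizontal axis, with 1 point for each of 476 miRNAs and bars at the medians of 4 ranges of GC content. The medians are level in library 3 and rise with GC content in libraries 4 and 5, from -0.38 to 0.29 and from -0.43 to 0.18.

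The miR-183 cluster, which also holds miR-182 and miR-96, a single transcript best known from sensory organs, held the highest estimates of the miRNAs averaging 100 reads or more over the control libraries, and also a very wide spread. miR-183 was at 11 RPM in library 1 (95% Wilson interval 9.05 to 13.4), and at 24.9, 114 and 13.1 RPM in libraries 3, 4 and 5 (50.7 ± 55.3, SD, n = 3). Library 4 stood alone, and library 5 lay close to the non-trained control. The log2 fold change was 1.56 ± 1.28 (SE) with a 95% interval from -1.48 to 4.61 (limma, adjusted p = 0.712). miR-182 was at 12.9 RPM in library 1, and at 33.4, 118 and 15.2 RPM in the trained controls, with a log2 fold change of 1.57 ± 1.28 (SE, limma, adjusted p = 0.712). miR-96, the least abundant of the cluster, was at 1.24 RPM in library 1 and at 2.44, 11.2 and 1.02 RPM in the trained controls, so that the non-trained library lay within their range. Among the trained controls the 3 members had the same order, with library 4 highest and library 3 next. Their summed level, * strands included, was 25.2 RPM in library 1 and 60.9, 245 and 29.3 RPM in the trained controls.

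Outside the control groups the cluster was as variable. Its sum was 260 RPM in the non-trained NIPP1* library and 170 and 25.9 RPM in libraries 6 and 7. With libraries 6 and 7 as the trained control the log2 fold change of miR-183 was 1.51, with 79.6 and 13.0 RPM against 11 RPM, and that of miR-182 was 1.21, with library 7 at 11.2 RPM, under the non-trained control. Without library 4 the estimate by label was 0.69 for miR-183 and 0.78 for miR-182, so library 4 carried most of the difference.

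miR-200c, an epithelial miRNA of the miR-200 family, showed the same dependence on single libraries at a much lower level. It was at 0.45 RPM in library 1, which is 4 reads, and at 0.49, 11.2 and 1.66 RPM in libraries 3, 4 and 5. The estimate of 1.62 ± 1.30 (SE) had an adjusted p of 0.712 (limma). Its close relative miR-141 was at 0.90 RPM in library 1 and at 0.24, 7.42 and 0.26 RPM in the trained controls. The whole list of 9 measured products of the miR-200 family summed to 239 RPM in library 1 and to 113, 321 and 223 RPM in the trained controls, so the groups overlapped.

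**Figure D3:**
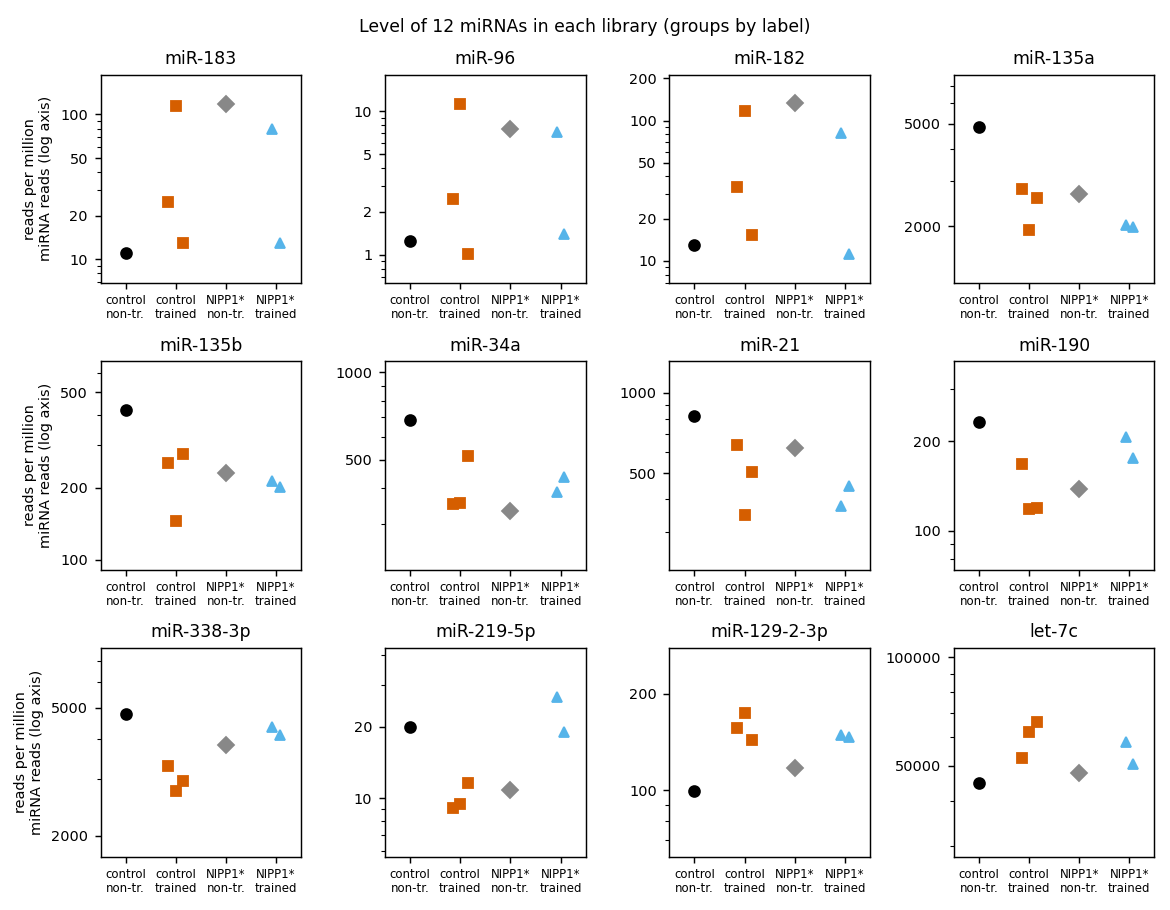
RPM of 12 miRNAs on log axes, 1 point per library, in the 4 groups by label (non-trained control, 1; trained control, 3; non-trained NIPP1*, 1; trained NIPP1*, 2). The members of the miR-183 cluster range from 13.1 to 114 RPM (miR-183) within the trained controls, while miR-21, miR-34a, miR-135a and miR-135b are highest in the non-trained control library.

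miR-135a, known to target the serotonin transporter, shared the lowest adjusted p of the comparison with miR-338-3p. It was at 4840 RPM in library 1, and at 2797, 1937 and 2574 RPM in libraries 3, 4 and 5 (2436 ± 446, SD, n = 3). All 3 trained control libraries lay well under the non-trained one, and the log2 fold change was -1.01 ± 0.21 (SE) with a 95% interval from -1.51 to -0.50 (limma, adjusted p = 0.583). With libraries 6 and 7 it was -1.27, at 2029 and 1994 RPM (limma, adjusted p = 0.408), and the DESeq2 Wald test in that grouping gave -1.23. The non-trained NIPP1* library was at 2661 RPM, so library 1 stood above all 6 other libraries, as it did for 93 of 476 miRNAs (19.5%). miR-135b had the same pattern at a lower level, with 419 RPM in library 1, 253, 146 and 276 RPM in the trained controls and 231 RPM in the non-trained NIPP1* library. Its log2 fold change was -0.95 ± 0.35 (SE, limma, adjusted p = 0.666). Of the other strands of the miR-135a hairpins, miR-135a-2* was at 8.21 RPM in library 1 and 6.71, 7.66 and 6.14 RPM in the trained controls, a log2 fold change of -0.25, and miR-135a-1* was lower in library 1 (0.79 RPM) than in the trained controls (1.22, 1.20 and 2.56 RPM).

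miR-34a, a transcriptional target of p53, was at 682 RPM in library 1 and at 350, 354 and 512 RPM in the trained controls, a log2 fold change of -0.77 ± 0.25 (SE, limma, adjusted p = 0.666). Libraries 6 and 7 were at 386 and 435 RPM and the non-trained NIPP1* library at 333 RPM, so that here too library 1 stood apart from all others. Its relatives miR-34b and miR-34c behaved otherwise. miR-34c was at 1111 RPM in library 1 and at 1648, 603 and 518 RPM in libraries 3, 4 and 5, and miR-34b-5p at 306 RPM against 497, 156 and 125 RPM. Library 1 lay within the trained range for both, with library 3 above it and libraries 4 and 5 below. It also lay between libraries 6 and 7, which were at 1628 and 790.5 RPM for miR-34c and 392 and 195 RPM for miR-34b-5p.

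miR-21, an miRNA raised in many injured and inflamed tissues, was at 821 RPM in library 1 and at 640, 348 and 507 RPM in the trained controls (-0.76 ± 0.32 on the log2 scale, SE, limma, adjusted p = 0.666). Libraries 6 and 7 were lower too, at 376 and 446 RPM. miR-190, which lies in an intron of the talin gene Tln2, was at 232 RPM in library 1 and at 167, 118 and 120 RPM in the trained controls, with a log2 fold change of -0.79 (limma, adjusted p = 0.666). Libraries 6 and 7 were nearer to the non-trained control, at 206 and 176 RPM. The non-trained NIPP1* library was at 138 RPM for miR-190 and 620 RPM for miR-21, within the range of the trained controls for both. miR-7a and miR-7b, abundant in neuroendocrine cells, had log2 fold changes of -0.61 and -0.56. miR-7a was at 9856 RPM in library 1 and at 7748, 6924 and 5042 RPM in the trained controls, and it was at 6803 RPM in the non-trained NIPP1* library and at 7659.5 and 8496.5 RPM in libraries 6 and 7. Of the 7 products tested of miR-190, miR-7 and miR-21, library 1 was above all 3 trained controls for 5 and below for 0, beside 37.4% and 18.3% over all miRNAs. The median log2 fold change was -0.59, against -0.28 in the grouping of the tables and -0.38 with the GC line removed. The summed level was 15239 RPM in library 1 and 10718 RPM in the non-trained NIPP1* library. These miRNAs are not of a single family, but miR-7a and miR-7b are close relatives, as are miR-190 and miR-190b. miR-21 and miR-190 were put on the list with their values known, so the count is no independent evidence.

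The summed level of the markers of oligodendrocytes, the myelinating cells, was lower in each trained control library than in library 1. miR-338-3p was at 4788 RPM in library 1 and at 3290, 2757 and 2958 RPM in libraries 3, 4 and 5 (3002 ± 269, SD, n = 3). The log2 fold change was -0.68 ± 0.15 (SE) with a 95% interval from -1.02 to -0.33 (limma, adjusted p = 0.583). miR-219-5p was at 20.0 RPM in library 1 and at 9.09, 9.46 and 11.6 RPM in the trained controls (-0.96 ± 0.28, SE, limma, adjusted p = 0.666). The groups did not overlap for either miRNA. In the non-trained NIPP1* library miR-219-5p was at 10.8 RPM, within the range of the trained controls, and miR-338-3p at 3834 RPM, between them and library 1. In libraries 6 and 7 miR-219-5p was at 26.7 and 19 RPM, on both sides of library 1 (log2 fold change 0.17), and miR-338-3p at 4348 and 4104 RPM, under library 1 but closer to it (log2 fold change -0.18). All 5 tested products of the list had a negative estimate, beside 59.5% over all miRNAs, and none passed the test. Library 1 was above the trained range for 4, beside 37.4%, and the median log2 fold change was -0.47. Against libraries 6 and 7 it was above both for 2, beside 37.8%, and the median was -0.10. The summed level was 5461 RPM against 3707, 3266 and 3513 RPM, and 4400 RPM in the non-trained NIPP1* library. In pooled tissue, fewer cells of a type and less RNA per cell cannot be told apart.

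Markers of the choroid plexus, the secretory epithelium of the ventricles that borders the hippocampus, varied more between the trained control libraries than between groups. miR-1298 was at 647 RPM in library 1 and at 1348, 336 and 136 RPM in libraries 3, 4 and 5, and miR-448-3p was at 100.5 RPM in library 1 and at 192, 44.1 and 17.5 RPM. Both lie on chromosome X in introns of the serotonin receptor gene Htr2c. Their log2 fold changes of -0.71 and -0.91 placed them among the 12 lowest, but the 95% intervals ran from -3.64 to 2.22 and from -3.74 to 1.92. The list of 9 measured products summed to 1509 RPM in library 1 and to 2896, 989 and 626 RPM in the trained controls, with libraries 6 and 7 on both sides of library 1 at 2149 and 857 RPM. miR-34b-5p and miR-34c followed the same order over the 4 control libraries. Library 7, however, was above library 4 for both of them and under it for the list. The part of tissue makeup in these values was not tested.

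By label, the other marker lists overlapped between groups or differed by less than that of oligodendrocytes. The neuron list (miR-9, miR-124, miR-128, miR-132, miR-137, miR-212) summed to 247155 RPM in library 1 and to 247241, 216384 and 217887 RPM in the trained controls. Libraries 6 and 7 were at 230530 and 230852 RPM. miR-9 alone was at 149800 RPM in library 1. Of 13 products tested, 9 had a positive and 4 a negative estimate, beside 59.5% negative over all miRNAs, with a median of 0.20. Library 1 was above the trained range for 4 and below for 5, beside 37.4% and 18.3%. Against libraries 6 and 7 it was above both for 4 and below both for 6, beside 37.8% and 28.8%. Blood vessel markers summed to 14890 RPM in library 1 and to 15553, 17759 and 18540 RPM in the trained controls, with libraries 6 and 7 at 16362 and 17280 RPM. Red blood cell markers were at 131 RPM and at 143, 73.1 and 73.7 RPM, so the groups overlapped by label. In libraries 6 and 7 they were at 150.2 and 278 RPM, both above library 1, which was below both for 4 of the 4 products tested, beside 28.8% over all miRNAs, and the median log2 fold change was 0.63 in that grouping against -0.57 by label. Leukocyte and microglia markers were at 1302 RPM in library 1 and between 1256 and 1382 RPM in the trained controls, with libraries 6 and 7 at 1163 and 1358 RPM. Markers of liver, muscle and hindbrain were at 16.3, 636 and 37.3 RPM in library 1, against 247155 RPM for the neuron list.

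**Figure D4:**
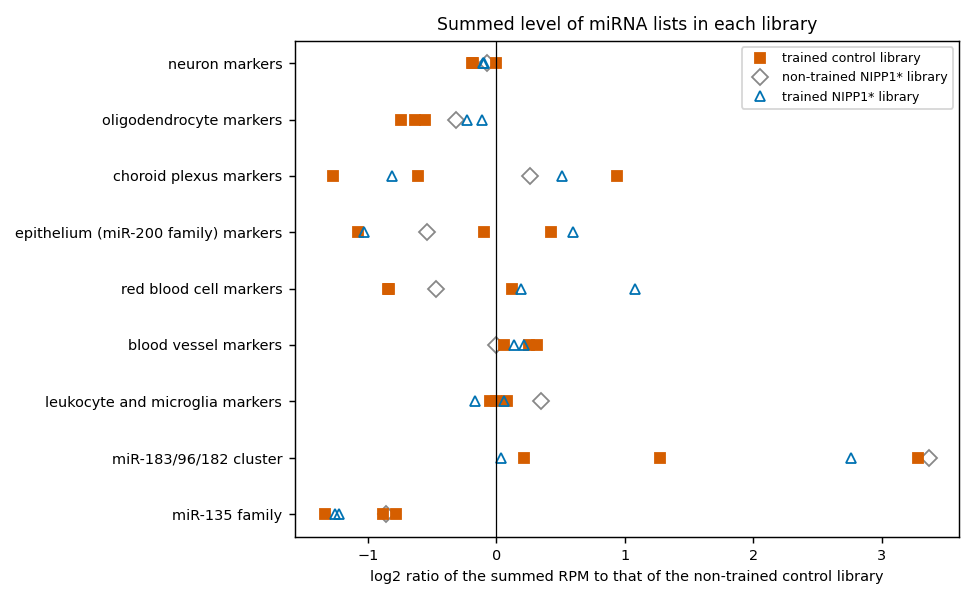
The summed RPM of 9 lists of miRNAs in each library, as a log2 ratio to the non-trained control library, with filled squares for the 3 trained controls and open symbols for the NIPP1* libraries. Oligodendrocyte markers and the miR-135 family lie under 0 in every trained control library, while choroid plexus markers and the miR-183 cluster spread widely among them.

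miR-129-2-3p was higher in every trained library than in library 1. It was at 99.1 RPM in library 1 (95% Wilson interval 92.8 to 106) and at 156, 174 and 143 RPM in libraries 3, 4 and 5 (158 ± 15.2, SD, n = 3). Libraries 6 and 7 were at 148 and 146 RPM and the non-trained NIPP1* library at 117 RPM. The log2 fold change was 0.66 ± 0.19 (SE) with a 95% interval from 0.22 to 1.11 (limma, adjusted p = 0.666), and 0.57 in the grouping of the tables. The DESeq2 Wald test on recovered reads gave 0.76 with an adjusted p of 0.0219, the single call of that tool. The other abundant products of the miR-129 hairpins had higher values too, with miR-129-1-3p at 11.5 RPM against 14.5, 15.2 and 17.1 RPM and miR-129-5p at 832 RPM against 888, 1273 and 1210 RPM.

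miR-129 was on a list of activity-regulated and dendritic miRNAs, which also holds miR-132 and miR-212, neighbours that are transcribed in response to CREB, and miR-134 and miR-138, regulators of dendritic spines. Of 30 products tested, 16 had a positive and 14 a negative estimate, beside 59.5% negative over all miRNAs, and none passed the test. Library 1 was above the trained range for 9 and below for 11, beside 37.4% and 18.3% over all miRNAs, and the median log2 fold change was 0.05, beside -0.09 over all miRNAs. Against libraries 6 and 7 it was above both for 11 and below both for 8, beside 37.8% and 28.8%. The median in that grouping was -0.0077. miR-132 was at 257 RPM in library 1 and at 367, 281 and 312 RPM in the trained controls. miR-212-3p was at 92.5 RPM against 139, 130 and 118 RPM, a log2 fold change of 0.48 ± 0.19 (SE, limma, adjusted p = 0.666). For both, library 1 lay below all 3 trained controls and below libraries 6 and 7 (292 and 344 RPM for miR-132). The non-trained NIPP1* library was also above library 1, at 298 RPM for miR-132, within the range of the trained controls, and at 116 RPM for miR-212-3p, just under it. The 4 tested products of miR-132 and miR-212, cut from chr11:74986905-74987246, had estimates from 0.06 to 0.48. The lowest was that of miR-132*, the most abundant of them, at 1859 RPM in library 1 and 2233, 1725 and 1873 RPM in the trained controls. Library 1 also lay between libraries 6 and 7 for miR-132*, at 1707 and 2046 RPM. miR-212-5p was at 320 RPM against 428, 355 and 382.5 RPM, but at 294 RPM in library 6. In the other direction, miR-134 was at 216 RPM against 162, 207 and 180 RPM and miR-218 at 5402 RPM against 4392, 3956 and 3496 RPM. Libraries 6 and 7 were below library 1 for both, with estimates of -0.21 and -0.19 in that grouping.

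The let-7 family, which shares the seed GAGGUAG and holds back cell growth in differentiated tissue, split by member. let-7c was at 44775 RPM in library 1 and at 52360, 62100 and 66190 RPM in the trained controls (60217 ± 7105, SD, n = 3), a log2 fold change of 0.42 ± 0.15 (SE, limma, adjusted p = 0.666). let-7b was at 17020 RPM against 19510, 28520 and 31920 RPM, with an estimate of 0.62. let-7d*, the strand opposite let-7d, was at 162 RPM against 160, 322 and 351 RPM, so that library 3 lay with the non-trained control. With libraries 6 and 7 the estimates were smaller, 0.27 for let-7c, 0.24 for let-7b and 0.25 for let-7d*, against 0.70 by label for the last. let-7a (40460 RPM against 38280, 44850 and 44180 RPM) and let-7f (41895 RPM against 42085, 38440 and 36910 RPM) overlapped. let-7g was above the trained range, at 10480 RPM against 8723, 8561 and 8884 RPM. Of 16 products tested, 10 had a positive and 6 a negative estimate, beside 59.5% negative over all miRNAs, with a median of 0.08, beside -0.09. Library 1 was above the trained range for 2 and below for 6, beside 37.4% and 18.3%, and above libraries 6 and 7 for 3 and below both for 10, beside 37.8% and 28.8%. The estimate of let-7f was -0.10, and that of let-7g was -0.26. The summed level of the family was 188248 RPM in library 1 and 195185, 220240 and 226587 RPM in the trained controls.

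Other miRNAs at the top of the order had the same pattern of library 3 near library 1 and libraries 4 and 5 above. miR-92b (GC content 63.6%) was at 418 RPM in library 1 and at 451, 764 and 676 RPM in the trained controls. miR-328 (GC content 68.2%) was at 1338 RPM against 1480, 2261 and 2151 RPM. miR-150 (GC content 54.5%), typical of mature lymphocytes, was at 265 RPM against 305, 444 and 422 RPM. miR-145 (GC content 52.2%), of smooth muscle, was at 301 RPM against 361, 474 and 439 RPM. With libraries 6 and 7 the log2 fold changes of miR-92b and miR-328 were 0.12 and 0.06, and that of miR-145 was 0.48. miR-29b-1* (GC content 40.9%) was at 37.7 RPM against 42.6, 66.5 and 77.9 RPM, an estimate of 0.67. Libraries 6 and 7, at 40.6 and 36.0 RPM, lay on both sides of library 1 for it, with an estimate of 0.022. miR-455 (GC content 57.1%) and miR-3102 (60.9%) had estimates of 0.49 and 0.50.

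**Figure D5:**
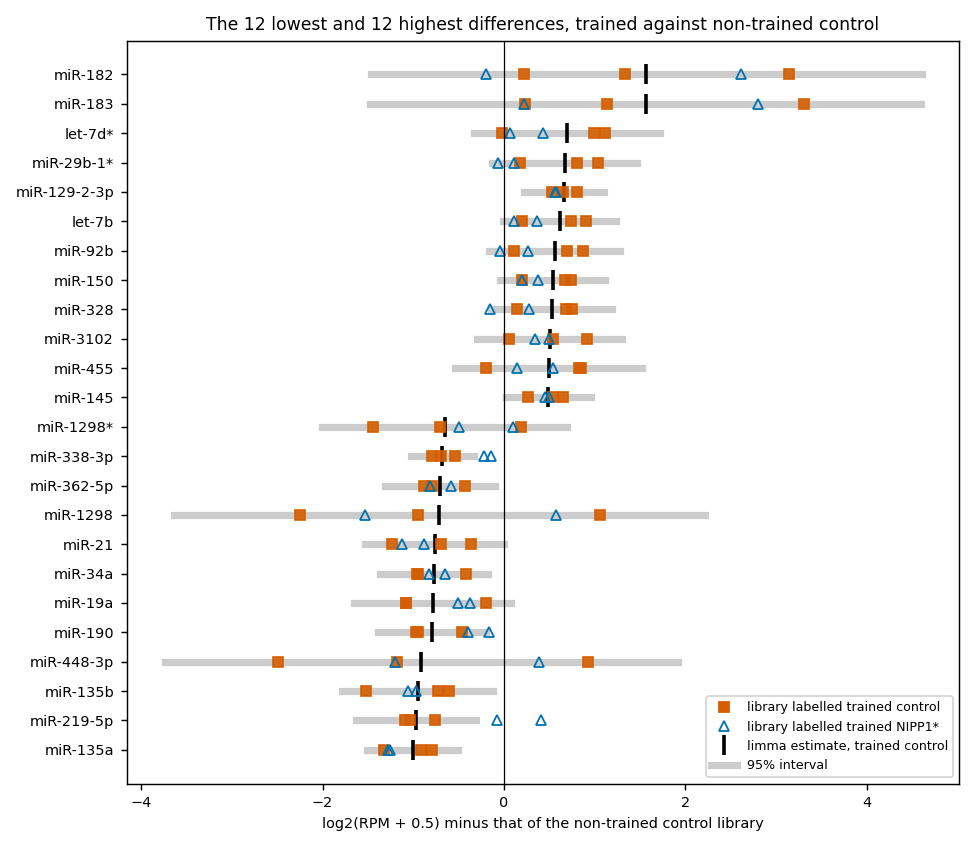
The 12 lowest and 12 highest limma differences between trained and non-trained controls among miRNAs averaging 100 reads or more, as log2(RPM + 0.5) minus that of library 1, with a square for each trained control library, an open triangle for each library labelled trained NIPP1*, a tick at the estimate and a bar for its 95% interval. The bars of miR-182, miR-183, miR-448-3p and miR-1298 are the widest. The squares lie on both sides of 0 for miR-448-3p, miR-1298, miR-1298*, let-7d* and miR-455, and on 1 side in the other rows. Over all miRNAs tested, library 1 lay above all 3 trained controls for 37.4% and below all 3 for 18.3%.

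Of the 10 most abundant miRNAs, let-7b and let-7c, given above, had the largest estimates. miR-9, which is made by neurons and their progenitors, was at 149800 RPM in library 1 and at 141300, 115400 and 107500 RPM in the trained controls, a log2 fold change of -0.31 ± 0.15 (SE, limma, adjusted p = 0.666). miR-29a was at 113100 RPM against 113100, 108200 and 103200 RPM, with an estimate of -0.07 and a 95% interval from -0.28 to 0.15, among the narrowest. miR-125b-5p was at 81745 RPM against 87840, 104150 and 106850 RPM. miR-128 and miR-26a had estimates of 0.26 and 0.18, and miR-29c of -0.24.

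The miR-379 to miR-410 cluster of chromosome 12, an imprinted array expressed from the maternal allele in neurons, had lower values in the trained controls for most of its products. Of 56 products tested, 41 had a negative and 15 a positive estimate, beside 59.5% negative over all 476 miRNAs, and none passed the test. Library 1 was above the trained range for 29 and below for 6, beside 37.4% and 18.3% over all miRNAs. Against libraries 6 and 7 it was above both for 23 and below both for 15, beside 37.8% and 28.8%. The median log2 fold change was -0.19 with a range from -0.63 to 0.47, and the median was -0.10 with TMM factors and -0.12 with the GC line removed. The summed level was 15863 RPM in library 1 and 14911, 15066 and 13239 RPM in the trained controls. The median was -0.06 under the grouping of the tables, and libraries 6 and 7 were at 14988 and 15507 RPM. The 6 tested products of the miR-99b, let-7e and miR-125a cluster on chromosome 17 had positive estimates, from 0.10 to 0.48, with a median of 0.31 by label and of -0.00040 in the grouping of the tables. For the 11 tested products of the miR-30 family the median was -0.10, and for the 7 of the miR-29 family it was -0.07, near the -0.09 of all miRNAs, and with TMM factors these medians were -0.013 and 0.025.

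Families with a common seed differed in how alike their members' estimates were. The 3 products miR-130a, miR-130b and miR-301a had estimates from -0.51 to -0.38, with library 1 above the trained range for 3, beside 37.4% over all miRNAs. miR-148a, miR-148b and miR-152 had estimates from -0.52 to -0.34, with library 1 above the trained range for 2, beside the same 37.4%. With TMM factors the share over all miRNAs was 27.3%, and the families were not counted again under that scaling. Both families were among those with the lowest medians. The medians of these families under the grouping of the tables were -0.10 and -0.17. Other families spread more widely, from -0.39 to 0.21 for miR-181a, miR-181c and miR-181d, from -0.47 to 0.56 for miR-25, miR-32, miR-92a and miR-92b, and from -0.25 to 1.62 for miR-200b, miR-200c and miR-429. For 138 hairpins with both strands tested, the estimates of the 2 strands had the same sign in 89, with Pearson's r of 0.35 and Spearman's rho of 0.32 across hairpins, given as a description since both strands come from the same libraries.

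Whether the difference between trained and non-trained libraries itself differed between NIPP1* and control mice was tested by the interaction in the same limma model. It called 0 of 476 miRNAs. The lowest adjusted p was 0.126, and 37 miRNAs had an unadjusted p under 0.05. With the trained groups of the tables it called 0, with 6 miRNAs at that level and 0.997 as the lowest adjusted p, and without library 3 it called 0, with 85 miRNAs at that level. A difference between the genotypes in the response to training was thus not shown. Each genotype has 1 non-trained library, whose spread was not measured but borrowed from the trained groups.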

How the data were processed

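Small RNA libraries (TruSeq Small RNA kit, sequenced on a HiSeq) were processed by the authors with ncPRO-seq and Bowtie on mm9, and CASAVA 1.7.0 and bedtools are named in the submitters' processing notes. The authors deposited, for each miRNA locus, its percent among all miRNA reads of a library. The deposited comparison tables hold a signal, the authors' group means of reads divided by size factors. Their fold changes, p-values and adjusted p-values were not used, and 2 columns of group values were not mapped to a sample and not used.

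The percentages were multiplied to RPM, and the 806 loci were averaged over copies of the same mature sequence to 756 sequences, since each copy carries all reads. Names were taken from the tables for 686 of 706 names, 680 by reads and name and 6 by reads alone. The 70 sequences without a name reached at most 1.92 RPM. Of 756 sequences, 641 had an exact RefSeq match. Whole reads were recovered for 100% of the values of up to 100 reads, within 0.1 read. 1 read was worth between 0.0998 and 0.137 RPM.

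limma (lmFit, contrasts and eBayes with trend) was run on log2(RPM + 0.5), which understates changes of low miRNAs, in 1 model of all 7 libraries in 4 groups, for miRNAs averaging 10 reads or more. The spread of the single non-trained library was taken from the other groups. The study's methods name a Wilcoxon test, which cannot pass a threshold with 1 library against 3. The fit was also run on simulated counts. In these, 200 miRNAs were changed by more than any estimate here, without a shift with GC content. That run does not show how the fit performs on these data. Members, lists and named miRNAs were chosen with earlier results of these data known: miRNAs discussed before, the 12 highest and 12 lowest estimates among those averaging 100 reads or more in the control libraries, the 10 most abundant, and any called by a tool. DESeq2 1.42.0 and edgeR 4.0.16 served as alternatives to limma 3.58.1 in R 4.3.3, and tables were made with pandas 2.3.3 and scipy 1.17.1 in Python 3.11.15.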

Additional observations from a re-analysis of the deposited data

How the results depend on the processing

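Both non-trained groups have 1 library, and leaving it out ends the comparison. limma called 0 miRNAs under every alternative run with it, namely libraries 6 and 7 as trained control, TMM, DESeq2 size factors, means of at least 1 or 100 reads, pseudocounts of 0.1 and 1 RPM, the control libraries alone, no joining of copies, the removal of a GC line and leaving out each trained control replicate, and edgeR called 0 as well. The DESeq2 Wald test called 1 in either grouping. Leaving out each trained control replicate in turn gave between 0 and 0 calls, and between 1 and 20 miRNAs past a log2 fold change of 1, against 7. It gave 20 without library 3 and 1 without library 4, and 3 were past that size with a mean of at least 100 reads. Library 1 below every trained library was found for 137 miRNAs with libraries 6 and 7, and for between 100 and 156 without 1 trained control replicate, against 87. Leaving out a replicate gave between 305 and 391 outside the range in either direction and between 189 and 235 above it. These counts are taken against the range of 2 libraries, which is passed more often than that of 3, so they rise by construction. The interaction called 0 throughout.

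Of 558 values for 35 named miRNAs under 16 alternatives, 540 kept their direction and their side of the threshold, 2 passed it and 16 changed sign. With libraries 6 and 7 the estimates were 0.17 for miR-219-5p (0.20 with edgeR, 0.23 with DESeq2), -0.0060 for let-7a and 0.11 for let-7f (0.12 and 0.15), and those of miR-29a were 0.0098 and 0.035 with these tools. By label, miR-29a was at 0.025 with TMM, 0.029 with DESeq2 size factors, 0.026 with edgeR and 0.029 with DESeq2, and with the GC line removed miR-29a was at 0.040 and let-7f at 0.12. Leaving out a trained control replicate gave miR-1298 estimates between -1.60 and 0.057. The causes were not tested. No paired analysis was possible because the non-trained control has 1 library.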
